A study of Mus musculus with 12 samples.

Results

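Mammary gland that kept a single allele of Stat5b was compared with mammary gland that kept a single allele of Stat5a. Both kinds of mice carried 1 chromosome on which Stat5a and Stat5b were both null (Stat5abnull). In the single-Stat5b mice (Stat5abnull/Stat5a-) the other chromosome lacked Stat5a, which leaves 0 alleles of Stat5a and 1 of Stat5b. In the single-Stat5a mice (Stat5abnull/Stat5b-) it lacked Stat5b, which leaves 1 allele of Stat5a and 0 of Stat5b. The arrays were taken by these genotype labels, 3 per genotype, and are 6 of the 12 arrays in the study. The other arrays came from Stat5a-/- and Stat5ab+/null mice, so every mouse in the study lacked at least some Stat5. Tissue was taken at day 6 after a mating plug was seen, which is early pregnancy, and total RNA was hybridized to Affymetrix mouse whole-genome arrays. The mice were of mixed ancestry from FVB, 129 and C57BL/6, per the labels, which do not give the strain makeup of a single mouse. The sample descriptions also speak of sorted cells and of PolyIC given to induce Mx1-Cre, while the design text speaks of frozen mammary tissue. These statements cannot both describe the material, and the labels do not settle it. The p-values below measure the spread between 3 mice per genotype.

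Stat5a and Stat5b are a pair of closely related transcription factors encoded side by side on chromosome 11. Hormones and cytokines such as prolactin and growth hormone activate them through Jak2, and they then bind DNA as dimers at the palindrome TTCNNNGAA. In the mammary gland Stat5a is the more abundant form, and the pair drives the growth of milk-producing alveoli during pregnancy. The comparison asks how the transcripts of early pregnancy gland differ according to which of the pair remains, at 1 allele in all.

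All values are log2 signals of a probe set, a group of short probes that reads one stretch of a transcript. A difference is the mean of the single-Stat5b arrays minus the mean of the single-Stat5a arrays, so 1 unit is a factor of 2. Each gene is read through its leading probe set, the one strongest on average across the 6 arrays, and genes under the 30th percentile of signal, a log2 level of 5.913, were not tested. The arrays of single-Stat5a mice correlated with each other at 0.977 to 0.988 over all probe sets, those of single-Stat5b mice at 0.957 to 0.973, and arrays of different genotype at 0.949 to 0.978. Whole-tissue transcripts were strong on all 6 arrays: the keratin Krt18 of luminal epithelium read 12.46 to 13.78 and the fat cell hormone Adipoq 13.72 to 14.15. The array of single-Stat5a mouse 2 stood apart by skeletal muscle transcripts, with a mean of 12.60 over 18 genes against 7.49 to 9.94 in the others. In single-Stat5b mouse 1 the 3' probe set for actin exceeded the 5' one by 3.78, a sign of RNA quality, against 2.16 to 3.07 elsewhere. For Gapdh the same gap was 3.91 in that mouse and 2.80 in single-Stat5a mouse 3, against 1.11 to 1.48 in the others. The value of 3.07 for actin was also that of single-Stat5a mouse 3.

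Of 14222 genes tested, 174 (1.22%) passed a limma test at an adjusted p below 0.05 and are called here. In the single-Stat5b mice 66 of them were higher (0.464%) and 108 lower (0.759%). For all 174 the 3 arrays of one genotype lay clear of the 3 of the other, and all differed at least 2-fold, with 78 at least 4-fold and 33 at least 8-fold. The smallest of these differences was 1.13 and the median 1.88 in either direction, while the median over all tested genes was -0.02. Of the 174, 52 had one genotype below the filter level, 22 in single-Stat5a and 30 in single-Stat5b mice, and for these the fold depends on where the array's background lies. Leaving out 1 array gave 102 calls without single-Stat5a mouse 1, 102 without mouse 2 and 79 without mouse 3. Without single-Stat5b mouse 1 there were 88, without mouse 2 there were 163, and without mouse 3 there were 151. At an unadjusted p below 0.05 there were 1010 of the 14222 genes, the background for such counts in the gene lists below. Counted without a test, 682 genes (4.80%) had all 3 single-Stat5b arrays above the single-Stat5a arrays and 899 (6.32%) all 3 below. In all 6 of the fits without 1 array, 65 genes passed, 27 higher and 38 lower. With each array's muscle signal as a covariate 83 genes passed, and with its B cell signal 106.

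Stat5a itself was the first check of the labels. Its strong probe set read 12.48, 12.33 and 11.83 in single-Stat5a mice 1 to 3 and 10.98, 11.09 and 10.87 in single-Stat5b mice 1 to 3. All 3 mice without a Stat5a allele lay below all 3 with one. The difference was -1.23 ± 0.251 (SE), with an adjusted p of 0.0531 in limma over genes and 0.0476 over single probe sets, so it lies at the threshold. The signal left in mice with 0 Stat5a alleles was still high, and where this probe set lies relative to the deleted stretch was not checked. A further Stat5a probe set was below the filter level in both genotypes, at means of 5.29 and 5.05.

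Stat5b read 9.33, 9.72 and 9.26 in single-Stat5a mice, which carry 0 alleles of it, and 9.65, 9.36 and 9.89 in single-Stat5b mice. These values overlapped. The difference was 0.20, with a 95% interval of -0.37 to 0.76 and an adjusted p of 0.999 in limma. The weaker probe set, near the filter level, read 6.19, 6.26 and 5.99 against 6.79, 6.62 and 6.95, without overlap. It gave 0.64 ± 0.232 (SE) at an adjusted p of 0.417 in limma over single probe sets. The leading probe set thus does not show the Stat5b genotype beyond its spread. The weaker one lay in the direction of the genotype but did not pass. A probe set outside the deleted stretch checks nothing, and where these lie was not checked. Of the 20 tested protein-coding genes nearest to Stat5a and Stat5b on chromosome 11, 0 passed the test. Their differences were -0.67 to 0.79, with a lowest adjusted p of 0.249 in limma, and 2 had an unadjusted p below 0.05.

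The 10 largest rises in single-Stat5b mice were H2-Ea, Ifi202b, AI506816, Hal, Map3k7cl, Gbp2b, Rbm45, Ifi44l, H2bc18 and Tmem87a. H2-Ea, the alpha chain of the class II antigen-presenting molecule E, read 5.90, 4.47 and 5.34 in single-Stat5a mice and 12.88, 12.83 and 13.35 in single-Stat5b mice. It was near background in all 3 mice of one genotype and among the strong signals in all 3 of the other. The difference was 7.78 ± 0.358 (SE), its size resting on a background level in single-Stat5a mice, at an adjusted p of 5.6e-06 in limma, and a second probe set gave 6.02. Ifi202b, an interferon-inducible DNA-binding protein, read 6.09, 5.05 and 5.65 against 10.84, 11.54 and 11.66. It too went from background to a clear signal, by 5.75 ± 0.331 (SE). H2-Ea and Ifi202b are known as genes that some inbred mouse strains, C57BL/6 among them for H2-Ea, do not express. Whether the parts of the mixed background differ between these mice was not tested, and genotype and background cannot be told apart here.

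Hal, histidine ammonia-lyase, which takes the first step of histidine breakdown, read 4.93, 5.12 and 5.48 in single-Stat5a mice and 10.10, 9.92 and 11.12 in single-Stat5b mice. Its lowest single-Stat5b array lay more than 4 log2 units above its highest single-Stat5a array, and the difference was 5.20 ± 0.337 (SE). Rbm45, an RNA-binding protein, read 6.64, 6.46 and 7.56 against 11.26, 10.76 and 10.63, a difference of 3.99. Tmem87a, a Golgi membrane protein, was well above background in both genotypes and higher by 3.42. H2bc18, a histone H2B gene, was higher by 3.69, Map3k7cl by 4.29 and AI506816 by 5.31. Among genes with both means above the filter level, Agtr2, the type 2 receptor for angiotensin II, was higher by 3.23. Polr3gl, a subunit of RNA polymerase III, was higher by 3.02, and Gchfr, which restrains the enzyme that starts biopterin synthesis, by 2.99.

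Of the 10 largest falls 9 are described here: Cdsn, Trim12a, Cep85, Zfp874a, Cldn34c1, H2-Q10, Phkg1, Hps1 and Pdxdc1. Cdsn, corneodesmosin, an adhesion protein of cornified skin, read 11.26, 12.11 and 11.06 in single-Stat5a mice and 5.55, 5.85 and 4.50 in single-Stat5b mice. It was a strong transcript in one genotype and below the filter level in the other, by -6.18 ± 0.397 (SE), at an adjusted p of 5.2e-05 in limma. Trim12a, of a family of antiviral ubiquitin ligases, read 10.31, 10.23 and 10.06 against 4.37, 4.70 and 4.23, a difference of -5.76. H2-Q10, a secreted class I molecule known from liver, read 9.99, 10.36 and 9.69 against 5.10, 5.22 and 5.26, a difference of -4.82. Trim12a and H2-Q10 varied little within a genotype and Cdsn more, with an SD of 0.56 and 0.71, and in all 3 the arrays of the genotypes were far from overlap. Zfp874a, a zinc finger gene, differed by -4.87, Cldn34c1, of the claudin family of tight junction proteins, by -4.84 and Cep85, a centrosomal protein, by -5.06. Xdh, xanthine oxidoreductase, read 11.53, 11.64 and 11.78 in single-Stat5a mice and 8.22, 8.43 and 8.50 in single-Stat5b mice. It was measured well above background in all 6, and the difference was -3.27 ± 0.225 (SE), a 9.63-fold drop.

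**Figure D1:**
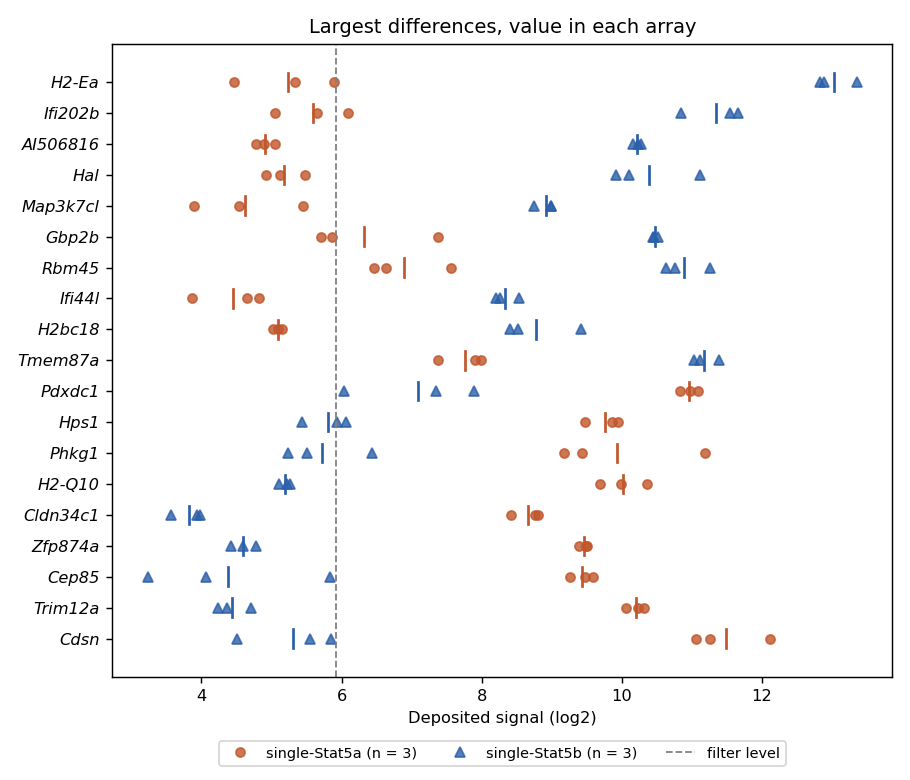
Deposited log2 signal of the genes with the largest rises and falls in each of the 6 arrays, circles for single-Stat5a and triangles for single-Stat5b mice, with a short line at each mean and a dashed line at the filter level of 5.913. For every gene shown the circles and triangles do not overlap, and H2-Ea has the widest gap at 7.78.

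The promoters of 3 of these genes are shown because each holds 1 copy of the Stat5 palindrome. They run from 250 bases before to 50 bases after the start of the gene in RefSeq on GRCm38.p6, 5′ to 3′ on the strand of the gene, with the palindrome in capitals. Ifi202b, at chr1:173982795-173983094 on the minus strand, has TTCTCAGAA starting 148 bases upstream. Rbm45, at chr2:76369734-76370033 on the plus strand, has TTCCCGGAA 45 bases upstream, and Cdsn, at chr17:35542851-35543150 on the plus strand, has TTCAACGAA 160 bases upstream.
Ifi202b: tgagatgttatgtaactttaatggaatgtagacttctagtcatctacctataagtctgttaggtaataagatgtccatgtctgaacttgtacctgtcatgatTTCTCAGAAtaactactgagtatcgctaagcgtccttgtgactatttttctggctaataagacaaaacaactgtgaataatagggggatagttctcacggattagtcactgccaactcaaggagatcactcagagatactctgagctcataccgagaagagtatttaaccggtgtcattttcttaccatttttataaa
Rbm45: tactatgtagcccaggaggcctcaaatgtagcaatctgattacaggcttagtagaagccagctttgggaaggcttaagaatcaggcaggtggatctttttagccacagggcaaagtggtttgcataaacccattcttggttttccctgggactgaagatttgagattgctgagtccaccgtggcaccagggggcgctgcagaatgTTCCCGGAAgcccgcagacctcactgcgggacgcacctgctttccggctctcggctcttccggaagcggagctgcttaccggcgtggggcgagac
Cdsn: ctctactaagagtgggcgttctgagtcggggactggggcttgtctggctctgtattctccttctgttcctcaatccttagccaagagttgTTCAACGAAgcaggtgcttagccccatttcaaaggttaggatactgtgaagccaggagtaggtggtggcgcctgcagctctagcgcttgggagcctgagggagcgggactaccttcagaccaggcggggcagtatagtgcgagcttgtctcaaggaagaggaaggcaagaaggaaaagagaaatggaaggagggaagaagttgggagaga
The motif searched was TTCNNNGAA, which reads the same on both strands. It occurred in 8.30% of all 32851 promoters in the table and in 6.82% of those of tested genes. Among genes that were higher it was in 9 of 62 promoters (14.5%), and among genes that were lower in 8 of 108 (7.41%). A match describes these letters only, and binding was not measured.

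In the lists of antigen presentation and interferon genes most differences were below 0, while some of the largest calls were rises. H2-Ea was the called gene among 11 measured class II genes. H2-Aa and H2-Ab1, the chains of the class II molecule A, and Cd74, the class II chaperone, differed by -0.76, -0.68 and -0.70, at adjusted p of 0.458, 0.519 and 0.814 in limma. The class II list as a whole had a median of -0.43, beside -0.02 over all genes. In it 8 of 11 genes were below 0 and 3 had an unadjusted p below 0.05 in limma. Its mean per array overlapped between genotypes. Of 15 class I genes 12 were below 0, with a median of -0.52, and 6 had an unadjusted p below 0.05. The list's mean was 10.62, 10.61 and 10.69 in single-Stat5a mice and 9.99, 9.64 and 10.26 in single-Stat5b mice, without overlap. That mean leans on H2-Q10 and H2-Q5, whose differences of -4.82 and -1.71 were the largest falls of the list. By their leading probe sets 2 class I genes were called lower, H2-Q10 and H2-Q5. H2-Q5 read 7.85, 8.52 and 7.94 against 6.85, 5.97 and 6.35, but its second set, not called, pointed the other way at 0.47, with 6.69, 6.69 and 6.81 against 7.29, 6.84 and 7.49, so its direction is uncertain. The strongly expressed H2-D1 and H2-K1 differed by -0.65 and -0.57 and did not pass. The 8 probe sets of H2-D1 disagreed, with 4 of the sign of the leading one, and their mean gave 2.31 with an adjusted p of 0.00284 in limma.

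Of 6 measured Ifi200 genes Ifi202b was higher and Ifi209 lower, at 9.42, 9.05 and 9.38 against 5.69, 5.55 and 5.24, a difference of -3.79. A second probe set of Ifi209 gave -0.96. Of 11 guanylate-binding and immunity-related GTPases, which act against intracellular pathogens, Gbp2b was higher, at 5.86, 5.71 and 7.38 against 10.44, 10.52 and 10.46. The other 10 of that list were below 0 and none passed. Irgm2, at -1.41, had an adjusted p of 0.0703 in limma. Over all 11, 4 had an unadjusted p below 0.05 in limma. Among 29 genes of the type I interferon response Ifi44l was higher by 3.88 and Ifit3 lower by 1.27 on the log2 scale. Ifi44l read 4.82, 4.66 and 3.87 against 8.26, 8.54 and 8.20, and its second probe set gave 2.48. The list's median was -0.47, with 25 of 29 genes below 0 and 9 at an unadjusted p below 0.05 in limma. Its mean per array overlapped between genotypes.

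Of 12 genes in the Trim5-like cluster and related antiviral TRIM genes, 4 had an unadjusted p below 0.05 in limma. The called genes were 3, all lower: Trim12a, Trim30d and Trim5. They lie as a run on chromosome 7, called together within 5 tested genes. Trim30d read 9.92, 9.63 and 9.73 against 5.80, 7.62 and 6.45, and Trim5 read 7.98, 7.59 and 7.71 against 5.70, 5.72 and 5.59. Other members of the same cluster did not pass: Trim6 differed by -1.07, Trim34a by -0.34, Trim30a by -0.26 and Trim12c by 0.47. These genes are close relatives, so a probe set can read more than 1 of them.

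Of 12 measured milk protein genes 9 were above 0 and 4 had an unadjusted p below 0.05, with a median of 0.26. The list's mean was 9.27, 8.73 and 9.17 in single-Stat5a mice and 9.88, 9.75 and 9.65 in single-Stat5b mice, without overlap. That mean leans on Glycam1, Cel and Csn1s1, whose differences of 3.17, 2.82 and 2.11 were the largest of the list. The called gene was Cel, a milk lipase that needs bile salts, which read 5.64, 5.99 and 5.53 in single-Stat5a mice and 8.92, 7.87 and 8.85 in single-Stat5b mice. Its arrays did not overlap, and it was higher by 2.82 ± 0.317 (SE). Csn1s1, a casein, read 9.73, 7.28 and 8.39 against 9.52, 11.20 and 10.99, a difference of 2.11 with overlap and an adjusted p of 0.248 in limma. Csn2 differed by 0.25 and Wap by 0.33, and the interval for Csn2, -1.09 to 1.60, leaves room for a 2-fold change either way. Glycam1, a mucin made in milk and in lymph node vessels, read 5.47, 5.15 and 5.99 against 11.96, 7.75 and 6.39. It was highest in single-Stat5b mouse 1, whose mean over 11 B cell genes was also highest at 8.54 against 6.82 to 7.93, and the adjusted p was 0.425 in limma. Of the other measured genes of lymph node stroma and vessels, Clec4g and Fut7 differed by 0.57 and 0.08. Cxcl13 and Madcam1 differed by -0.53 each, and none of these passed. The part of lymph node tissue in the Glycam1 value was not tested. In bulk tissue fewer cells of a type and less RNA per cell cannot be told apart.

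Xdh was the called gene among 13 genes of the milk fat globule and droplet, where it is needed to envelop fat droplets. Btn1a1, its partner in that role, differed by 1.01 at an adjusted p of 0.592 in limma. The list's median was 0.02, and 3 of its genes had an unadjusted p below 0.05 in limma. Its mean, 10.55 in single-Stat5a against 10.32 in single-Stat5b mice, did not overlap between genotypes, but leans on Xdh. Of 16 Stat5 target genes 0 passed the limma test, 1 had an unadjusted p below 0.05, and the median was -0.06. Cish, a feedback inhibitor induced by Stat5, read 10.06, 9.64 and 9.25 against 9.67, 9.28 and 8.68, which overlap, and differed by -0.44 (95% interval -1.16 to 0.28). Igfals, the serum partner of insulin-like growth factors, had the largest gap of that list at -1.23, with an adjusted p of 0.173 in limma. Of 14 secretory transport genes, 20 luminal and 11 hormone-sensing luminal genes 0 passed in limma, with 2, 0 and 2 at an unadjusted p below 0.05 and medians of 0.48, 0.32 and 0.40. The mean of the secretory transport list, 9.50 against 9.87, and of the hormone-sensing list, 9.91 against 10.28, did not overlap between genotypes, while that of the luminal list did.

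Of 11 genes of histidine and tryptophan breakdown 3 were called higher by their leading probe sets, Hal, Amdhd1 and Qprt. At an unadjusted p below 0.05 in limma there were 4. Next to Hal on chromosome 10 lies Amdhd1, which acts later in the same pathway. It read 5.44, 5.30 and 5.18 against 7.00, 7.56 and 6.83, a difference of 1.82. Uroc1, the enzyme between them, was not called and pointed the other way, at -1.28 with an adjusted p of 0.158 in limma. Qprt clears quinolinate from tryptophan, but its probe sets were called in opposite directions, so its rise is uncertain. Of 6 iodide handling genes, a list drawn up after values were seen, 2 were higher: Iyd, which recovers iodide from iodotyrosines, by 2.22 and Slc5a5, the sodium-iodide symporter that loads iodide into milk, by 1.69. Slc5a5 read 6.95, 6.44 and 6.85 against 8.99, 7.87 and 8.45. Duoxa1 and Duox1 also lay clear of overlap, at 1.34 and 0.90, but did not pass. Over the 6 genes, 4 had an unadjusted p below 0.05 in limma.

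**Figure D2:**
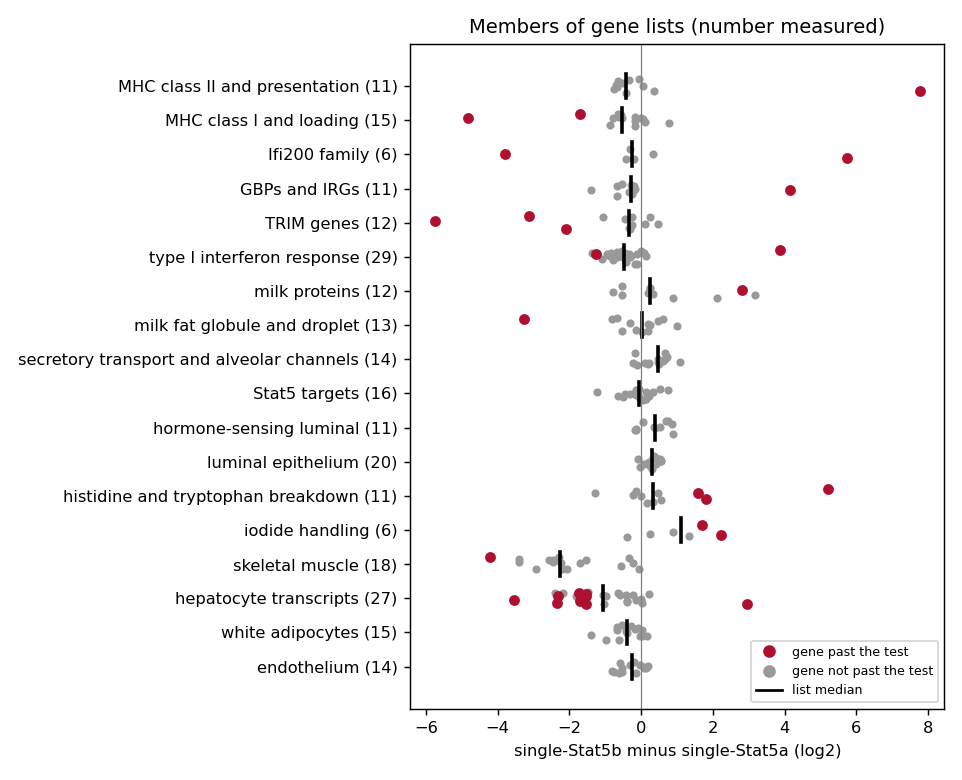
Difference between single-Stat5b and single-Stat5a mice (log2) for every measured member of 18 gene lists, red where the gene passed the test and grey where it did not, with a black line at the list median. Most lists hold at most 3 red points, and in the Ifi200 and type I interferon lists red points lie on both sides of 0.

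Genes that belong to other tissues also differed. All 18 skeletal muscle genes had a difference below 0, with a median of -2.27, and 12 had an unadjusted p below 0.05 in limma. The list's mean per array was 9.86, 12.60 and 9.16 against 7.49, 8.02 and 9.94, which overlap. The one called gene was Phkg1, the catalytic subunit of muscle phosphorylase kinase. It read 9.44, 11.18 and 9.18 against 5.50, 6.43 and 5.24. In single-Stat5b mouse 3, the last of these, the mean of the muscle list lay within the single-Stat5a range. Myh4, a fast myosin heavy chain, read 10.17 in that same mouse, against 10.14 to 14.42 in single-Stat5a mice. A second Phkg1 probe set gave -5.79. The part of differing muscle content in the Phkg1 difference was not tested.

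Of 27 hepatocyte genes, a list also drawn up after values were seen, 8 were lower and 1 higher. The median was -1.06, with 24 of 27 below 0 and 17 at an unadjusted p below 0.05 in limma. The list's mean was 8.39, 9.01 and 9.00 in single-Stat5a mice and 7.72, 7.79 and 7.72 in single-Stat5b mice, without overlap. For a list drawn up with the values known, this lack of overlap is no support by itself. Mup10, a major urinary protein, differed by -3.54, Fabp1, the liver fatty acid binding protein, by -2.35 and Fgg, the fibrinogen gamma chain, by -2.31. Kng1, Apof, Fgl1, Apoa1 and Itih4 were lower by 1.53 to 1.72 on the log2 scale. Serpina1b, an antitrypsin gene, moved the other way, at 6.82, 8.76 and 8.40 against 10.93, 10.34 and 11.59. Alb, the albumin gene, differed by -0.14 and overlapped. Mup10 and Serpina1b belong to families of near-identical copies, so which copy was read is uncertain. The part of liver RNA or of differing tissue composition was not tested.

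**Figure D3:**
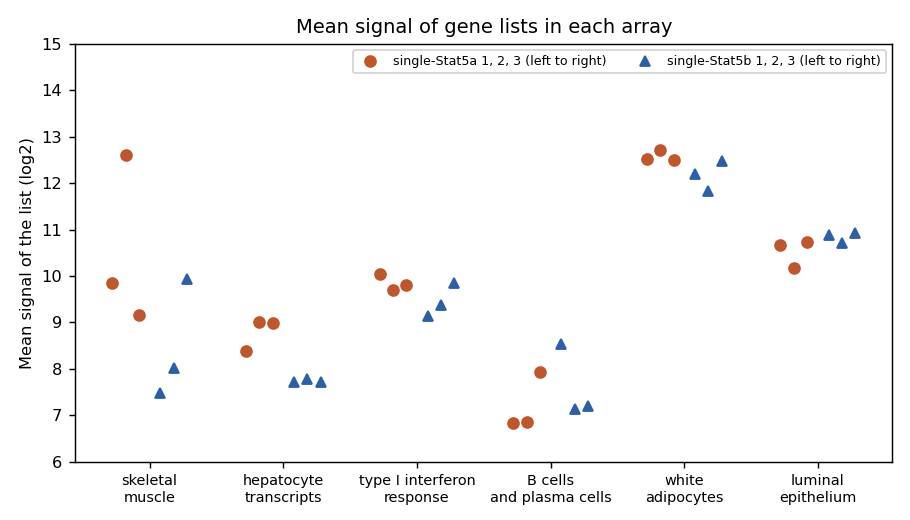
Mean log2 signal of 6 gene lists in each array, circles for single-Stat5a mice 1 to 3 and triangles for single-Stat5b mice 1 to 3. The muscle mean peaks at 12.60 in single-Stat5a mouse 2 and overlaps between genotypes. The hepatocyte means do not overlap, but that list was drawn up after values were seen, so this is no support by itself.

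Where a gene was read by several probe sets they often disagreed. Of the 174 called genes 114 had a single tested probe set and 60 had several. In 40 of the 60 all probe sets pointed the same way (66.7%), against 49.1% of 6712 genes that were not called. All probe sets were called in one direction in 11 genes: Ang, Col4a6, Cxcl15, Fabp1, Gm14057, H2-Ea, Ifi44l, Phkg1, Ppp1r3e, Serpina1b and Vps52. In 40 of the 60 genes at most 1 probe set was called in the direction of the leading one. Another could be called the other way, as in Qprt. Over all 60 the next probe set showed a median of 0.311 of the leading one's difference. Ang, angiogenin, a ribonuclease, differed by -2.85, -2.97 and -2.02 in its 3 probe sets, with 11.08, 11.09 and 10.92 against 8.34, 8.46 and 7.74 in the leading one. Col4a6, a basement membrane collagen chain, gave -3.57 and -2.99. Cxcl15, a chemokine, gave 2.23 and 2.31. In Vps52, of the complex that returns vesicles to the Golgi, the sets agreed in sign but not in size, at -1.47 and -5.19.

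In other large calls the probe sets differed in size or direction. Hps1, a subunit of a complex that forms lysosome-related organelles, differed by -3.95 in the leading set and by -0.47 and -0.11 in the others. Cep85 gave -5.06 and -0.42. In both genes the leading set alone passed. B3galt6, which builds the linker of proteoglycans, gave -3.04 and -1.42, both called, and -0.12, which did not pass. Pdxdc1, named for its pyridoxal-dependent decarboxylase domain, had the widest disagreement. Its leading set read 10.97, 11.09 and 10.83 against 7.34, 6.04 and 7.89, while another read 5.01, 4.44 and 4.86 against 11.67, 10.86 and 11.39. So 1 probe set was lower by 3.87 on the log2 scale and another higher by 6.54, with further sets at -3.09, called, and -0.98, not called. Where these sets lie in the transcript, and whether strain variants lie under their probes in mice of mixed ancestry, was not tested, and the same holds for the genes that follow.

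Spon1, a secreted matrix protein, had 4 called probe sets, lower in 2 (-1.45 and -2.85) and higher in 2 (1.76 and 3.06). Qprt gave 1.60 and -1.63, both called, with 7.11, 6.76 and 7.04 against 8.82, 8.06 and 8.82 in one and 8.78, 8.31 and 8.54 against 6.98, 6.47 and 7.29 in the other. Rbm39 and Slc11a2 also had probe sets called in both directions, which makes 5 such genes. In Arsk, a sulfatase, the leading set was higher by 2.23 and the other, at -1.66, did not pass. Riok2 gave -1.31 with a set at 1.70 that did not pass, and Gcnt1, a glycan-branching enzyme, gave -1.99 with the other at 0.39. For such genes no single direction can be given for the transcript. Over all probe sets 504 of 31526 passed (1.60%), of which 352 name 1 gene, and these fall in 311 genes; 137 of those genes were not called through their leading set.

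**Figure D4:**
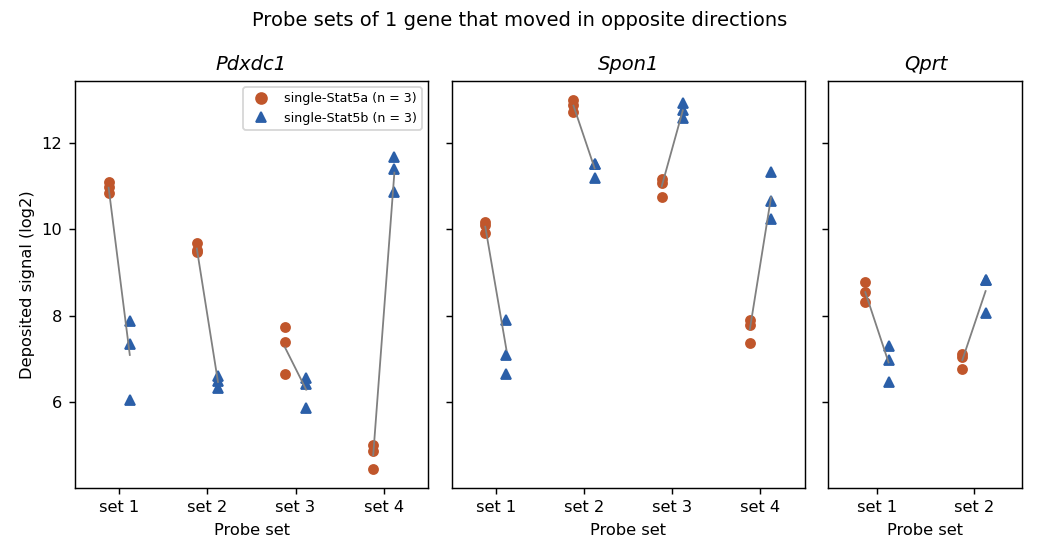
Deposited log2 signal of every tested probe set of Pdxdc1, Spon1 and Qprt in the 3 single-Stat5a arrays (circles) and the 3 single-Stat5b arrays (triangles), with a grey line joining the genotype means. In each gene at least 1 set rises and at least 1 falls, up to 6.54 and down to -3.87 in Pdxdc1.

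Some called genes were neighbours. Of 13538 tested protein-coding genes with a place in the RefSeq gene table, 153 were called (1.13%). Chromosome 11, which holds Stat5a and Stat5b, had 8 of 1150 (0.696%), and chromosome 14 had 12 of 461 (2.60%). Within 2 uncalled genes of each other lay 26 called genes in 12 runs, 9 of 1 direction and 3 of both. Beside the Trim run, a run on chromosome 4 held Ccl27a, a skin chemokine, Gm13306 and Gm21953, at -1.65, -3.41 and -2.35. Gm13306 read 10.40, 9.38 and 10.89 against 6.48, 7.17 and 6.80; these genes are near-copies, and their probe sets may share transcripts. H2-Q10 and Cdsn lie within 4 tested genes of each other on chromosome 17, and Nxpe4 and Nxpe2, at -3.83 and -2.38, are adjacent on chromosome 9. Ccnb1ip1, a regulator of crossing-over in meiosis, and Ttc5 on chromosome 14 were both higher, by 3.03 and 1.51. On the same chromosome Ang was lower and Rnase1, of the same ribonuclease family, was higher, at 6.40, 6.05 and 6.72 against 9.00, 8.76 and 8.25.

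Among skin genes Sprr1a, a precursor of the cornified envelope, was higher by 2.55 while Cdsn was lower, and these were the called members of 8. Cyp1a1, which oxidizes aromatic compounds, was lower by 1.29 on the log2 scale, as the called gene of 21 glutathione and xenobiotic enzymes. In limma 0 members passed for 15 white fat cell, 14 endothelial, 16 fibroblast, 14 macrophage, 12 T cell and 11 B cell genes. At an unadjusted p below 0.05 these lists held 3, 3, 0, 0, 1 and 2 genes. The list means for white fat cells, 12.57 in single-Stat5a against 12.17 in single-Stat5b mice, and for endothelium, 9.83 against 9.55, did not overlap between genotypes; those of the other 4 lists did. For the circadian clock 1 of 15 and for the cell cycle 0 of 19 genes were below that level, and 0 of either passed.

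Of 15 genes of the insulin-like growth factor axis 0 passed in limma, with 3 at an unadjusted p below 0.05. The list's mean, 11.39 in single-Stat5a against 11.04 in single-Stat5b mice, did not overlap between genotypes. Igf2, a growth factor, read 11.18, 9.52 and 9.34 in single-Stat5a mice and 8.00, 7.08 and 8.29 in single-Stat5b mice. These did not overlap, and the difference of -2.22 had an adjusted p of 0.0768. Of 22 fatty acid and triglyceride synthesis genes 0 passed and 1 had an unadjusted p below 0.05, with a median of -0.04. Of 13 prolactin and growth hormone receptor and feedback genes 0 passed and 0 were below that level, with a median of -0.09.

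Of the 76 called genes named here and in the observations that follow, 42 passed in all 6 fits that left out 1 array. The other 34 did not. Without single-Stat5a mouse 1, 2 or 3 the call was lost for 20, 21 and 27 of them. Without single-Stat5b mouse 1, 2 or 3 it was lost for 24, 14 and 19. The 34 are Amdhd1, Apoa1, Apof, Arsk, Bcl2l15, Ccl27a, Cldn34c1, Crym, Cyp1a1, Defb1, Fabp1, Fbp1, Fgg, Fgl1, Gcnt1, Gm21953, H2-Q5, Hps1, Ifit3, Itih4, Kng1, Lrig2, Pink1, Ppp1r3e, Pttg1, Qprt, Riok2, Saraf, Serpina1b, Slc5a5, Spon1, Sprr1a, Ttc5 and Vps52. Cldn34c1 in 3 of the fits and Gm21953 in 1 were not tested, because the mean fell under the filter level. Both passed in every fit that tested them. A call could also be lost as another probe set led, as in Hps1, whose difference ranged from -4.09 to -0.47. Of the 8 called lower hepatocyte genes Mup10 alone is not among the 34, so that list's count depends on single arrays. In Pdxdc1, which passed each time, the direction turned with the probe set that led.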

How the data were processed

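Per probe set, the deposited values are log2 signals made by the authors; RMA and Partek are named in the submitters' processing notes, without versions or settings. Array medians were 7.34 to 7.50. No normalization was added. With 3 arrays per genotype an exact permutation test cannot go below 0.1, and this small number sets the precision. Probe sets naming 1 gene were kept, each gene was read by its strongest set across the 6 arrays, and genes under the 30th percentile were left out. Differences were tested on the 6 arrays with limma 3.58.1 in R 4.3.3 and Benjamini-Hochberg adjustment over all genes; the method was tested on simulated data. Intervals are 95%, unadjusted.

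The comparison and the gene lists were chosen with earlier results of these data known. Named genes are the largest rises and falls (of all genes, of those with both means above the filter level, and of those with all probe sets called), called list members, runs of 3 neighbours and the widest opposite probe sets. One fall is left out because its probe set could not be tied to the microRNA whose name it bears. Gene order, taken over protein-coding genes only, and promoters are from RefSeq, GRCm38.p6. Replicates are numbered in accession order.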

Additional observations from a re-analysis of the deposited data

How the results depend on the processing

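The 174 genes called stayed within a factor of 1.5 without a filter (188), with quantile normalization (169) and with median centring (183). The same held with a trended robust variance (195) and with the actin 3' to 5' difference as a covariate (125). In all of these settings the 504 probe sets called also stayed within that factor. For genes alone, the count held with all probe sets of a gene averaged (174) and with the probe set highest over 12 arrays (166). Both counts moved further without moderation of the variance, to 16 genes and 66 probe sets. With array weights they were 1826 and 1406, and with the spread taken over all 12 arrays 357 and 989. At an adjusted p below 0.01 there were 79 and 257, with the muscle covariate 83 and 266, with the B cell covariate 106 genes, and with a filter at the 50th percentile 292 probe sets. Leaving out 1 array gave 79 to 163 genes and 255 to 487 probe sets. Leaving out mouse 2 of both genotypes, added after seeing the data, gave 88 genes. Equal counts need not hold the same genes. With all probe sets of a gene averaged, 138 of the 174 genes called were among the main 174. The cause of these shifts was not tested.

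Directions turned mostly where probe sets disagree. With all probe sets of a gene averaged, H2-D1 was at 2.31, Qprt at -0.014, Riok2 at 0.017 and Spon1 at 0.13. Leaving out 1 array moved Pdxdc1 between -4.27 and 6.66, Spon1 between -1.51 and 1.85, Qprt between -1.82 and 1.67, Arsk between -1.16 and 2.28 and H2-Q5 between -1.94 and 0.45, as another probe set led. Alb and Csn2, not called, turned with array weights (0.14 and -0.74), with the muscle covariate (0.072 and -0.19) and with mouse 2 of both genotypes left out (0.14 and -0.82); leaving out 1 array gave -0.39 to 0.013 for Alb and -0.56 to 0.81 for Csn2.

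No paired analysis was possible because the labels carry no replicate numbers that tie mice of different genotype. Values below the filter level have only a bound. With 3 mice per genotype, the width of its interval is what limits a statement on a gene that was not called.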

Other observations

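The following called genes were chosen after their values were seen. Pink1, a kinase that marks damaged mitochondria, read 12.97, 13.46 and 13.03 in single-Stat5a mice and 11.00, 11.55 and 10.61 in single-Stat5b mice, a difference of -2.10 ± 0.293 (SE), while a second probe set overlapped at -0.80. D2hgdh, which oxidizes D-2-hydroxyglutarate, read 12.76, 12.94 and 12.67 against 11.07, 11.26 and 10.58, a difference of -1.82, and a second probe set overlapped at 0.32. Fbp1, an enzyme of gluconeogenesis, read 7.14, 7.57 and 7.51 against 9.16, 9.03 and 9.86, a difference of 1.94. In the leading probe sets Pink1 and D2hgdh were strong signals in both genotypes, and none of the 3 genes overlapped.

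Defb1, a beta-defensin, was higher by 1.37, at a mean of 12.10 in single-Stat5a and 13.47 in single-Stat5b mice, and its second probe set gave 1.34 without passing. Cd59a, which protects cells from complement, read 11.71, 12.18 and 11.96 against 9.51, 9.98 and 10.32, a difference of -2.01, while its second probe set overlapped at -0.36. Pttg1, securin, was lower by 1.43 on the log2 scale and had 3 probe sets of 1 sign, of which 2 passed. Saraf, a regulator of calcium entry, and Lrig2 were lower by 1.43 and 1.20 on the log2 scale, but a second Lrig2 probe set overlapped at 0.02.

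Zhx2, a repressor of some liver genes, read 9.46, 9.34 and 9.69 against 6.65, 6.76 and 7.01, a difference of -2.69 ± 0.233 (SE) at an adjusted p of 0.000355 in limma. Rsl1, a zinc finger repressor of sex-limited liver genes, read 9.48, 9.63 and 9.73 against 7.63, 7.49 and 7.46, a difference of -2.09. The spread within a genotype was small for both. Crym, which binds thyroid hormone, was higher by 2.51, Cap1, which turns over actin filaments, by 2.97 and Bcl2l15 by 2.27. A second Cap1 probe set overlapped at 1.67 and did not pass.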
